A study of Mus musculus with 11 samples.

Results

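Clec12a, Klra2, Lilra5, Cd38, Pla2g7 and Apobec3 are mouse genes used to mark brain macrophages that come from bone marrow, and their reads were followed in 11 libraries of cells sorted from mouse brain. They were taken by symbol, so the 6 genes are 6 of the 24411 in the tables, and all 6 passed the filter on low counts. The cells are labelled microglia-like and were sorted from brain after mouse blood-forming cells had been transplanted in a competitive setting, with a vein (IV), a ventricle of the brain (ICV) or the intrathecal space at the lumbar level (ITL) as the route. For each of the 3 routes there were 3 populations, called CD45.1 TAµ, CD45.2 µ and CD45.1 µ after the allele of the leukocyte antigen CD45 and the sorted cell class. An ICV CD45.2 library marked PBS and a control library (CTR µ), for which no allele is given, complete the set. The labels expand neither TAµ nor PBS, name no allele for the host, and give no strain, age, sex or number of animals for any group. Each combination of route and population is 1 library. The p-values therefore rest on the spread left between libraries after additive effects of route and population are fitted. In edgeR, the spread of each gene is also drawn towards that of other genes. The p-values do not measure the spread between animals.

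Microglia arise from yolk sac progenitors and renew themselves in the brain. When blood-forming cells are transplanted after conditioning, their progeny can settle in the brain as macrophages that resemble microglia but keep part of a bone marrow-derived gene programme. Clec12a encodes an inhibitory C-type lectin receptor of myeloid cells that senses uric acid crystals. Klra2 belongs to the Ly49 family of lectin-like receptors, best known from natural killer cells, and is the member known for expression in macrophages. Lilra5 encodes an activating immunoglobulin-like receptor of monocytes and macrophages that, as known from the human receptor, signals through the Fc receptor gamma chain. Cd38 encodes an ectoenzyme that consumes NAD and makes calcium-mobilizing messengers. Pla2g7 encodes a secreted phospholipase that breaks down platelet-activating factor (PAF), and Apobec3 encodes a cytidine deaminase that restricts retroviruses.

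The myeloid factor PU.1 binds sites with the core GAGGAA, and interferon-regulated genes often hold a response element made of a pair of GAAA runs with NN between them. Both motifs were searched on both strands in the 250 bases before each gene's start, in RefSeq promoter sequences of the build GRCm38.p6, which is not the build used for counting. GAGGAA was present in 4 of the 6 genes, for Apobec3 only in a second window, and in 23.3% of all 32851 windows of this length. A gene was counted if any of its windows held a match, while the shares are of single windows, so the 2 are not alike. The response element was present in 1 of the 6 genes and in 2.98% of all windows, and the 2 motifs did not overlap in the windows shown. The 3 receptor genes and Apobec3 are shown because they hold a match, with the matches in capitals on the gene's own strand, so that a site on the other strand appears as TTCCTC or in its reversed form. The windows lie at chr6:129349994-129350243 on the plus strand (Clec12a), chr6:131247363-131247612 on the minus strand (Klra2), chr7:4237504-4237753 on the plus strand (Lilra5) and chr15:79892158-79892407 on the plus strand (Apobec3).
Clec12a: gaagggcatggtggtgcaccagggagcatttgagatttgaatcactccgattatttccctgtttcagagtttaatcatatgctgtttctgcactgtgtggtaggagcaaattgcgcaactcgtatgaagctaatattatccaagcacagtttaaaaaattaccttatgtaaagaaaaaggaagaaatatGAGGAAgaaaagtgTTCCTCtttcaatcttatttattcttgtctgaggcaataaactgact
Klra2: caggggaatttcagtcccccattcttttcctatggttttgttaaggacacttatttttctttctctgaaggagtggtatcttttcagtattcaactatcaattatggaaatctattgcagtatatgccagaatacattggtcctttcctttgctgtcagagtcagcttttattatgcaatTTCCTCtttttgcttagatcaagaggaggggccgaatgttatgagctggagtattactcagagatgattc
Lilra5: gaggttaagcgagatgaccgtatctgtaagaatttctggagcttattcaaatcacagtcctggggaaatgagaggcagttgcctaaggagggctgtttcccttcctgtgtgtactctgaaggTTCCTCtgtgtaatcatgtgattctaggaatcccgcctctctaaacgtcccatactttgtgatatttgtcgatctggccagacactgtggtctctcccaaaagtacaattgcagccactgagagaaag
Apobec3: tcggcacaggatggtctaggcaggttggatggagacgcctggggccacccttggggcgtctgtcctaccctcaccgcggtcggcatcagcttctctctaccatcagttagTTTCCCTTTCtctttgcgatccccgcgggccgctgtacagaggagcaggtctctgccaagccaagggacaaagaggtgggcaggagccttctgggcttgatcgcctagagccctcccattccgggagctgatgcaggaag
Clec12a held 2 GAGGAA matches, starting 61 and 47 bases before the start, while Klra2 held 1 at 70 bases and Lilra5 held 1 at 128 bases. The window of Apobec3 shown held the response element match at 140 bases, and a second Apobec3 window in the table, of a downstream start, held 1 GAGGAA match. The windows of Cd38 and Pla2g7 held neither motif. A match describes letters in these windows and says nothing about binding.

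Levels are given in CPM, read counts scaled to the library's total. ITL CD45.2 µ had the smallest total (6090589) and ICV CD45.2 µ the largest (21282823), so 3 counts, the limit that a count of 0 allows, correspond to 0.141 to 0.493 CPM. The 45S pre-ribosomal transcript took 6.98% to 25.1% of counts, and the fewest genes with a count were 10477 in IV CD45.2 µ, followed by 11456 in ICV CD45.1 µ, against up to 15492. Of 20 homeostatic microglia genes, at most 1 was at 0 in any library. Their summed level was 10140 to 26590 CPM in the 9 transplant libraries, 10410 CPM in PBS and 40170 CPM in CTR. Single genes of this list lay far apart in CD45.1 TAµ cells. Sall1 had 2.23 to 7.99 CPM there (973 in CTR), Sall3 0.743 to 1.89 CPM (205 in CTR) and Upk1b 0 to 0.270 CPM (61.7 in CTR). Fcrls had 1403 to 2216 CPM there (1711 in CTR). Markers of T and NK cells summed to at most 46.21 CPM and markers of B cells to at most 11.16 CPM in the 9, with up to 10 of 11 and 7 of 7 genes at 0. Neutrophil markers ran from 504.8 to 14750 CPM, monocyte markers from 154.1 to 1647 CPM, dendritic cell markers from 302.5 to 412.1 CPM, oligodendrocyte markers from 116.8 to 1294 CPM and neuron markers from 0.176 to 22.49 CPM. Xist, which is transcribed from the inactivated X of female cells, differed between libraries within and between groups, at 12.3 to 429 CPM in CD45.1 TAµ, 4028 to 6399 CPM in CD45.2 µ, 295 to 6291 CPM in CD45.1 µ, 6118 CPM in PBS and 0 in CTR. Within CD45.1 µ, Xist was at 295 CPM by IV, 1369 CPM by ITL and 6291 CPM by ICV. The Y-linked gene Ddx3y was at 245, 55.4 and 35.5 CPM in the same order. The part of the sex of the cells in the levels of the 6 genes was not tested. In bulk samples, fewer cells of a type and less RNA per cell cannot be told apart.

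**Figure D1:**
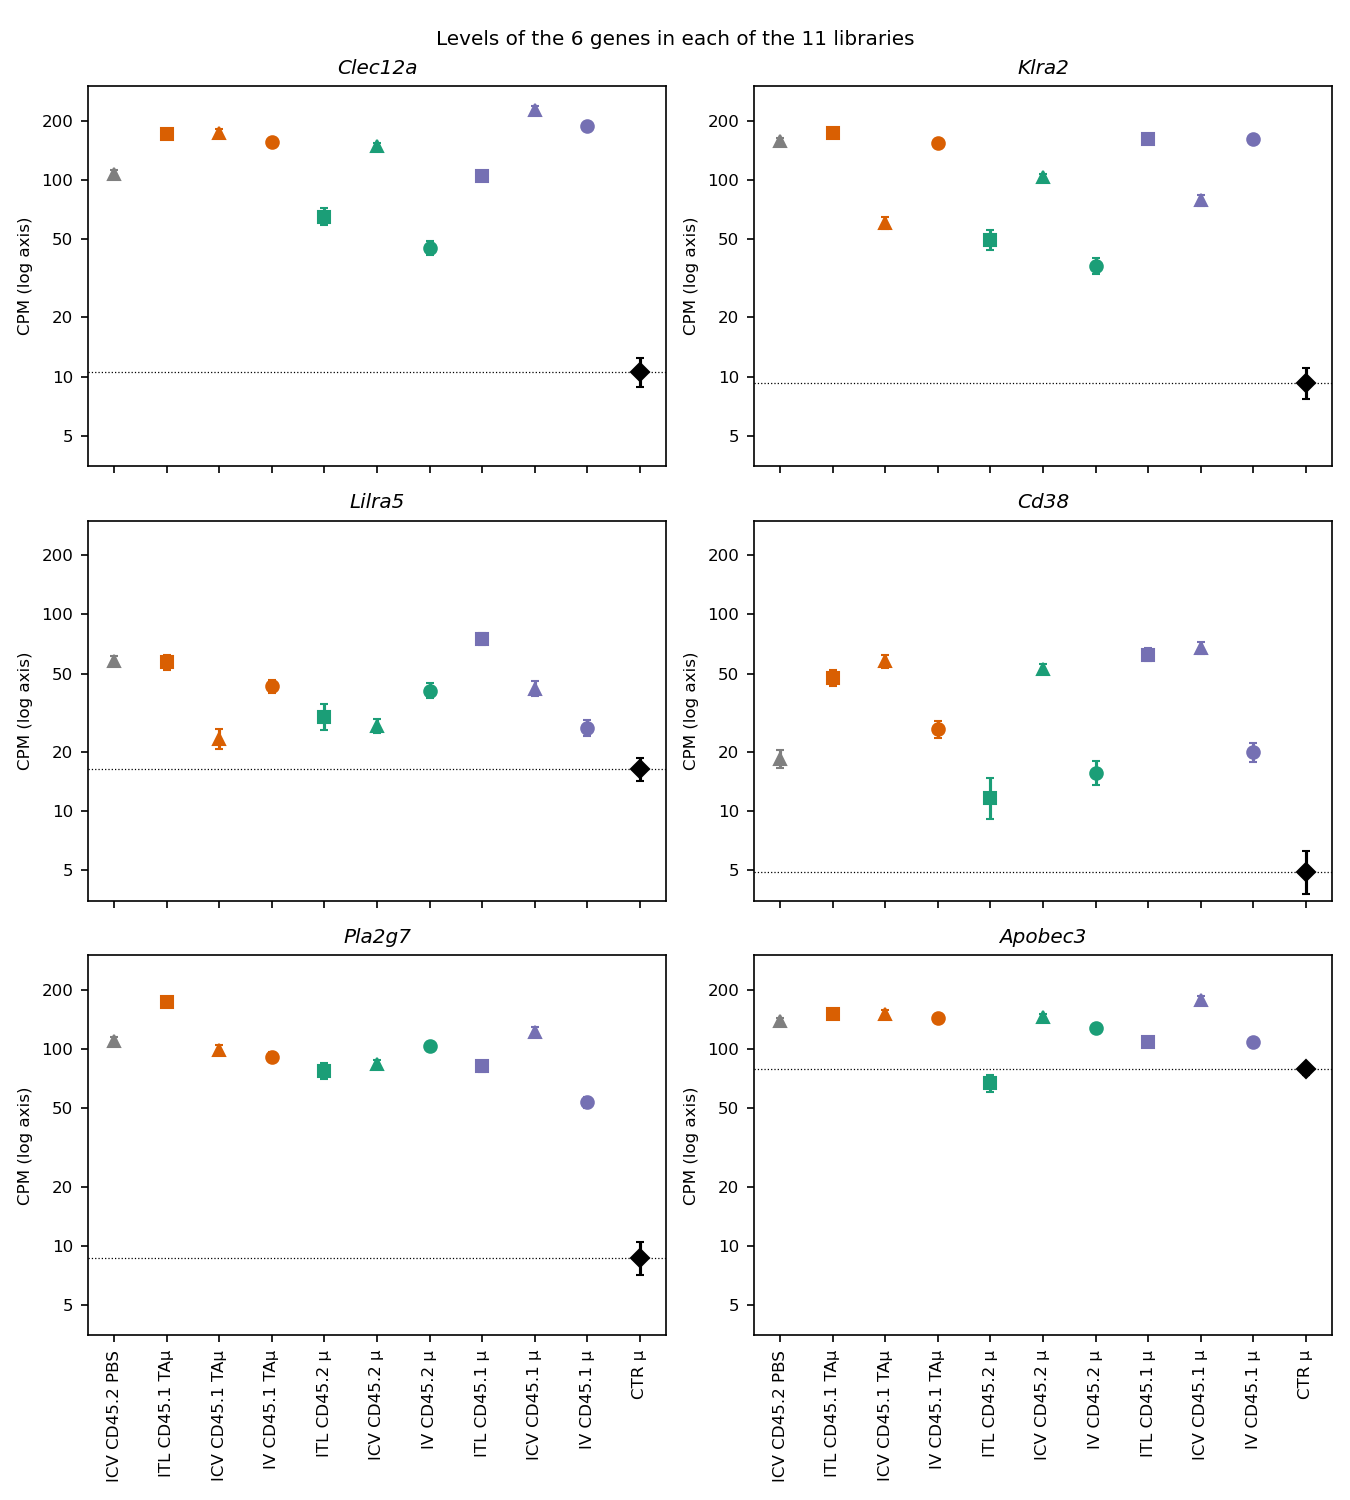
Level of each of the 6 genes in each of the 11 libraries, in CPM on a log axis; bars are exact 95% Poisson intervals, which cover counting error only, and the dotted line marks the CTR level. Colours are populations and shapes are routes (square ITL, triangle ICV, circle IV); 5 genes lie above the CTR line in all 9 transplant libraries, and Apobec3 lies below it in ITL CD45.2 µ.

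The first comparison asks how far the 6 genes set cells sorted after transplantation apart from control cells. Clec12a, Klra2, Lilra5, Cd38 and Pla2g7 were higher in all 9 transplant libraries than in CTR, and Apobec3 was higher in 8 of 9. The gap was widest for Clec12a, whose mean over the 9 was 13.4-fold that of CTR, and narrowest for Apobec3, with 1.66-fold. Being below all 9 in CTR held for 5 of the 6 genes and for 6.31% of the 14766 genes past the filter on low counts. Lying below all 9 by more than 2-fold held for 4 of the 6 (Clec12a, Klra2, Cd38 and Pla2g7) and for 1.21% of genes. A gene at 0 in any of the 9 could not meet either condition, which lowers both shares. IV CD45.2 µ had a count for only 10477 genes, while the 6 genes had counts in every library. The share among genes of like level was not measured. With 1 control library there is no test, and an exact one-sided permutation test of 1 library against 9 could not go below p = 0.1.

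Among the lectin-like receptors, Clec12a averaged 142 ± 59.3 CPM in the 9 transplant libraries (SD, n = 9), against 10.6 CPM from 138 reads in CTR. Klra2 averaged 109 ± 54.4 CPM in the 9, against 9.26 CPM from 121 reads in CTR, a ratio of 11.7. The lowest transplant library, IV CD45.2 µ for both, still stood 4.29-fold and 3.96-fold above CTR. Lilra5, the immunoglobulin-like receptor, averaged 40.6 ± 16.8 CPM in the 9, against 16.4 CPM from 214 reads in CTR. Its ratio of 2.48 was small beside those of the lectin-like receptors, and its lowest transplant library, ICV CD45.1 TAµ, stood 1.42-fold above CTR.

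Among the enzymes, Pla2g7 averaged 98.3 ± 33.8 CPM in the 9 transplant libraries, against 8.65 CPM from 113 reads in CTR, a ratio of 11.4. Even its lowest transplant library, IV CD45.1 µ, was 6.19-fold above CTR, the clearest separation of the 6 genes. Cd38 averaged 40.1 ± 21.8 CPM in the 9, against 4.90 CPM from 64 reads in CTR, a ratio of 8.20, with the nearest library 2.38-fold above CTR. Apobec3 averaged 131 ± 32.4 CPM in the 9, against 78.8 CPM from 1029 reads in CTR, and ITL CD45.2 µ was at 0.849 times CTR. Apobec3 was also the member that varied least over the 9 libraries, with a coefficient of variation of 24.7%, against 54.2% for Cd38.

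**Figure D2:**
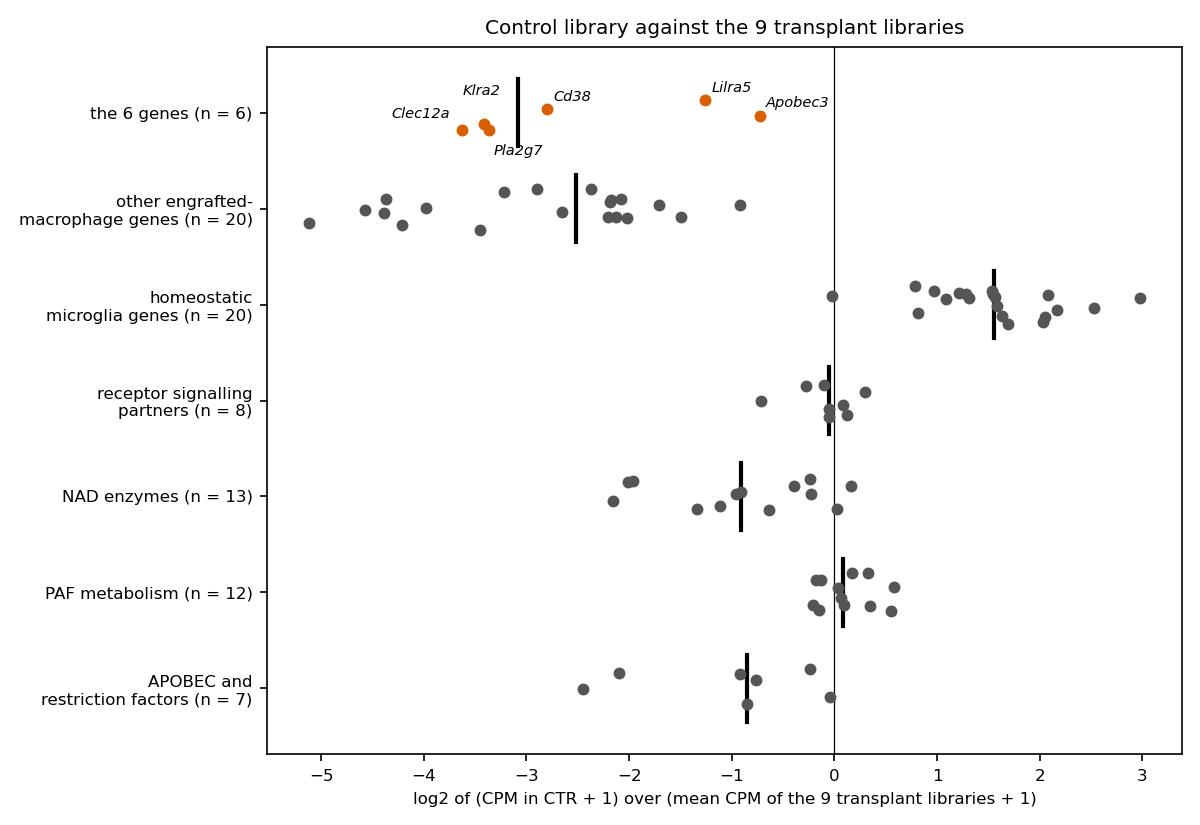
Log2 of CPM in CTR over the mean CPM of the 9 transplant libraries, with 1 CPM added to both, for the 6 genes and for lists of related genes past the filter on low counts; each point is a gene, the black bar is the list's median and values below 0 are lower in CTR. The 6 genes have a median of -3.08 and the other engrafted-macrophage genes one of -2.51, while homeostatic microglia genes have a median of 1.56.

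Other genes known from bone marrow-derived brain macrophages stood on the same side, and these are not independent of the choice of the 6, which were picked with earlier results of these libraries known. On a scale with 1 CPM added to both values, the median log2 ratio of CTR to the mean of the 9 was -3.08 over the 6 genes, -2.51 over 20 other engrafted-macrophage genes and -0.19 over all genes. Of those 20 genes, 18 were below all 9 transplant libraries in CTR, and the list shares Mrc1 and Ms4a7 with the border-associated macrophage list. Ms4a7, a membrane protein gene of such macrophages, had 38.7 to 276 CPM in the 9 and 5.28 CPM in CTR. Axl, a receptor kinase for dying cells, had 246 to 936 CPM in the 9 and 33.5 CPM in CTR. Of 20 homeostatic microglia genes, 17 were above all 9 in CTR, with a median log2 ratio of 1.56. Markers of border-associated macrophages summed to 1945 to 6134 CPM in the 9 and 891.1 CPM in CTR, and their part in the levels of the 6 genes was not tested.

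The signalling partners of the receptors had no such shared gap. The Fc receptor gamma chain gene Fcer1g, the adaptor of Lilra5, had 458 to 835 CPM in the 9 transplant libraries and 563 CPM in CTR. The adaptor gene Tyrobp had 272 to 643 CPM in the 9 and 438 CPM in CTR, and Ptpn6, a phosphatase recruited by inhibitory receptors, had 190 to 280 CPM in the 9 and 260 CPM in CTR. Of 8 such signalling genes, 1 (Ptpn11) was below and 1 (Lyn) above all 9 in CTR, with a median log2 ratio of -0.05. Near relatives of the receptors differed from one another. The 10 other Ly49 genes searched summed to at most 5.866 CPM in any transplant library, with between 5 and 10 of them at 0. How reads shared between near-identical Ly49 copies were counted was not given, which makes the Klra2 values uncertain. Of 8 C-type lectin neighbours, Clec2d, Clec2i and Clec7a were below all 9 in CTR, and Clec7a, a receptor for fungal glucans, had 124 to 342 CPM in the 9 and 42.6 CPM in CTR. Among 7 immunoglobulin-like relatives of Lilra5 in the tables, Lilrb4a, an inhibitory receptor, was below all 9, with 233 to 904 CPM in the 9 and 59.0 CPM in CTR.

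The pathways around the enzymes were split. Of 14 genes of NAD metabolism, 2 were below all 9 in CTR: Nampt, which makes the precursor of NAD, had 93.6 to 177 CPM in the 9 and 57.7 CPM in CTR, and Nadk, the NAD kinase, had 140 to 243 CPM in the 9 and 73.2 CPM in CTR. Bst1, the close relative of Cd38, had 0 to 21.9 CPM in the 9 and 0.765 CPM in CTR. None of 12 genes of PAF synthesis, breakdown or sensing lay outside the 9 in CTR, and their median log2 ratio was 0.08. The PAF receptor gene Ptafr had 72.3 to 148 CPM in the 9 and 127 CPM in CTR, and the PAF-synthesizing enzyme gene Lpcat2 had 597 to 928 CPM in the 9 and 906 CPM in CTR, so of this pathway Pla2g7 was the gene that set CTR apart. Of 9 genes of APOBEC enzymes and other restriction factors in the tables, Apobec1, Bst2 and Zc3hav1 were below all 9 in CTR. Apobec1, an editor of Apob messenger RNA, had 106 to 529 CPM in the 9 and 70.9 CPM in CTR, a wider gap than that of Apobec3.

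The comparisons among sorted populations ask whether the 6 genes differ between CD45.1 TAµ, CD45.2 µ and CD45.1 µ cells. Clec12a, Klra2 and Cd38 were lowest in the ITL and IV libraries of CD45.2 µ cells, where each was below its level in every other transplant library. The third CD45.2 µ library, ICV, did not share this. No member passed an adjusted p of 0.05 in edgeR's quasi-likelihood test in any of the population contrasts, nor in DESeq2. Over all 13339 genes tested, that threshold was passed by 0.075% for CD45.1 TAµ over CD45.1 µ, 0.03% for CD45.2 µ over CD45.1 µ and 0.345% for CD45.1 TAµ over CD45.2 µ in edgeR (10, 4 and 46 genes), while DESeq2 called 217, 277 and 193 genes. Libraries of both sides not overlapping in CPM held for 0, 0 and 1 of the 6 genes, and for 14.2%, 10.1% and 11.1% of genes, in the same order of contrasts. The genes called by edgeR included sex-linked ones. Xist fell for CD45.1 TAµ over CD45.1 µ, and the Y-linked Kdm5d, Uty and Ddx3y fell for CD45.2 µ over CD45.1 µ. For CD45.1 TAµ over CD45.2 µ, Xist fell and the Y-linked Kdm5d, Eif2s3y, Uty and Ddx3y rose. The part of sex in these contrasts was not tested.

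Clec12a had 171 (ITL), 173 (ICV) and 156 CPM (IV) in CD45.1 TAµ cells. It had 64.9, 148 and 45.3 CPM in CD45.2 µ cells and 104, 228 and 188 CPM in CD45.1 µ cells, routes in the same order. The CD45.1 TAµ libraries lay close together and all above the CD45.2 µ libraries, while the CD45.1 µ libraries spanned both. The fitted log2 fold change was 1.14 ± 0.34 (SE) for CD45.1 TAµ over CD45.2 µ, with adjusted p = 0.262 in edgeR's quasi-likelihood test, and the level was higher in 3 of 3 routes. For CD45.2 µ over CD45.1 µ it was -1.02 ± 0.34 (adjusted p = 0.485), lower in 3 of 3 routes. For CD45.1 TAµ over CD45.1 µ it was 0.11 ± 0.33, with a 95% interval from -0.57 to 0.80.

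Klra2 had 173 (ITL), 60.4 (ICV) and 154 CPM (IV) in CD45.1 TAµ cells. It had 49.6, 103 and 36.6 CPM in CD45.2 µ cells and 161, 78.5 and 161 CPM in CD45.1 µ cells. By ITL and IV the CD45.2 µ libraries were the lowest, and by ICV the order was turned round, with CD45.2 µ the highest. The groups overlapped in all 3 contrasts. The log2 fold change was 0.91 ± 0.46 for CD45.1 TAµ over CD45.2 µ (adjusted p = 0.776, edgeR) and -0.88 ± 0.46 for CD45.2 µ over CD45.1 µ (adjusted p = 0.593). These values depend on which CD45.2 µ libraries are included. Without ICV CD45.2 µ the Klra2 changes grew to 2.04 (adjusted p = 0.0072, edgeR) and -2.01 (adjusted p = 0.0229). That of Clec12a for CD45.1 TAµ over CD45.2 µ grew to 1.67 (adjusted p = 0.0393). The CD45.2 µ side then holds 2 libraries. Without IV CD45.2 µ the Klra2 changes shrank to 0.34 and -0.29, and that of Clec12a for CD45.1 TAµ over CD45.2 µ to 0.75, and none of these passed.

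The libraries that were low in these receptors also differed in other macrophage markers. The 20 other engrafted-macrophage genes summed to 9340 CPM in ITL CD45.2 µ, 10910 CPM in IV CD45.2 µ and 30050 CPM in ICV CD45.2 µ, against 27890 to 35170 CPM in CD45.1 µ cells. Apoe was the largest part of these sums, with 4194, 6532 and 19521 CPM in these CD45.2 µ libraries and 17537 to 24083 CPM in CD45.1 µ cells. Of the 20 genes, 16 had a negative fitted change for CD45.2 µ over CD45.1 µ, none past the threshold. The homeostatic microglia genes summed to 26590 CPM, 25060 CPM and 16030 CPM in the same CD45.2 µ libraries, against 14440 to 25210 CPM in CD45.1 µ cells. ITL and IV CD45.2 µ were thus below all CD45.1 µ libraries in the engrafted-macrophage list. In the homeostatic list ITL CD45.2 µ was above all of them, while IV CD45.2 µ was just under ITL CD45.1 µ (25210 CPM). ICV CD45.2 µ lay within the CD45.1 µ range in both lists. Border-associated macrophage markers summed to 1945 CPM, 2344 CPM and 4377 CPM in the ITL, IV and ICV CD45.2 µ libraries, against 4184 to 6134 CPM in CD45.1 µ cells, and 11 of the 12 genes had a negative fitted change for CD45.2 µ over CD45.1 µ, none past the threshold. Astrocyte markers summed to 309.2 to 785.3 CPM in CD45.2 µ cells and 165.1 to 330.1 CPM in CD45.1 µ cells, endothelial and mural markers to 71.23 to 399.1 CPM in CD45.2 µ cells and 27.45 to 108.6 CPM in CD45.1 µ cells, and oligodendrocyte markers to 279.4 to 964.3 CPM in CD45.2 µ cells and 148.3 to 365.3 CPM in CD45.1 µ cells. The part of these cell types in the levels of Clec12a, Klra2 and Cd38 was not tested.

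Lilra5 had 57.2 (ITL), 23.3 (ICV) and 43.0 CPM (IV) in CD45.1 TAµ cells. It had 30.2, 27.1 and 41.0 CPM in CD45.2 µ cells and 74.9, 42.0 and 26.5 CPM in CD45.1 µ cells. No population was uniformly high, and the order of the 3 populations was different in each route. The largest fitted change was -0.34 ± 0.40 for CD45.2 µ over CD45.1 µ (adjusted p = 0.803, edgeR), with a 95% interval from -1.19 to 0.50.

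Cd38 had 47.5 (ITL), 57.8 (ICV) and 26.1 CPM (IV) in CD45.1 TAµ cells. It had 11.7, 52.7 and 15.6 CPM in CD45.2 µ cells and 62.3, 67.7 and 19.9 CPM in CD45.1 µ cells. Within every route CD45.2 µ was the lowest of the 3 populations, but the groups overlapped because the routes lay far apart. The log2 fold change was 0.76 ± 0.43 for CD45.1 TAµ over CD45.2 µ (adjusted p = 0.811, edgeR) and -0.74 ± 0.42 for CD45.2 µ over CD45.1 µ (adjusted p = 0.615).

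Pla2g7 had 173 (ITL), 98.7 (ICV) and 91.5 CPM (IV) in CD45.1 TAµ cells. It had 77.2, 83.6 and 103 CPM in CD45.2 µ cells and 81.5, 122 and 53.5 CPM in CD45.1 µ cells. ITL CD45.1 TAµ stood above all others, and the remaining libraries of the 3 populations overlapped. The log2 fold change for CD45.1 TAµ over CD45.1 µ was 0.65 ± 0.32 (adjusted p = 0.874, edgeR), with a 95% interval from -0.04 to 1.33.

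Apobec3 had 151 (ITL), 150 (ICV) and 143 CPM (IV) in CD45.1 TAµ cells. It had 66.8, 146 and 128 CPM in CD45.2 µ cells and 109, 177 and 108 CPM in CD45.1 µ cells. The CD45.1 TAµ libraries lay within a narrow band that the other populations spanned or reached. The log2 fold change was 0.49 ± 0.28 for CD45.1 TAµ over CD45.2 µ (adjusted p = 0.826, edgeR), higher in 3 of 3 routes, and 0.34 ± 0.28 for CD45.1 TAµ over CD45.1 µ (adjusted p = 0.888).

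**Figure D3:**
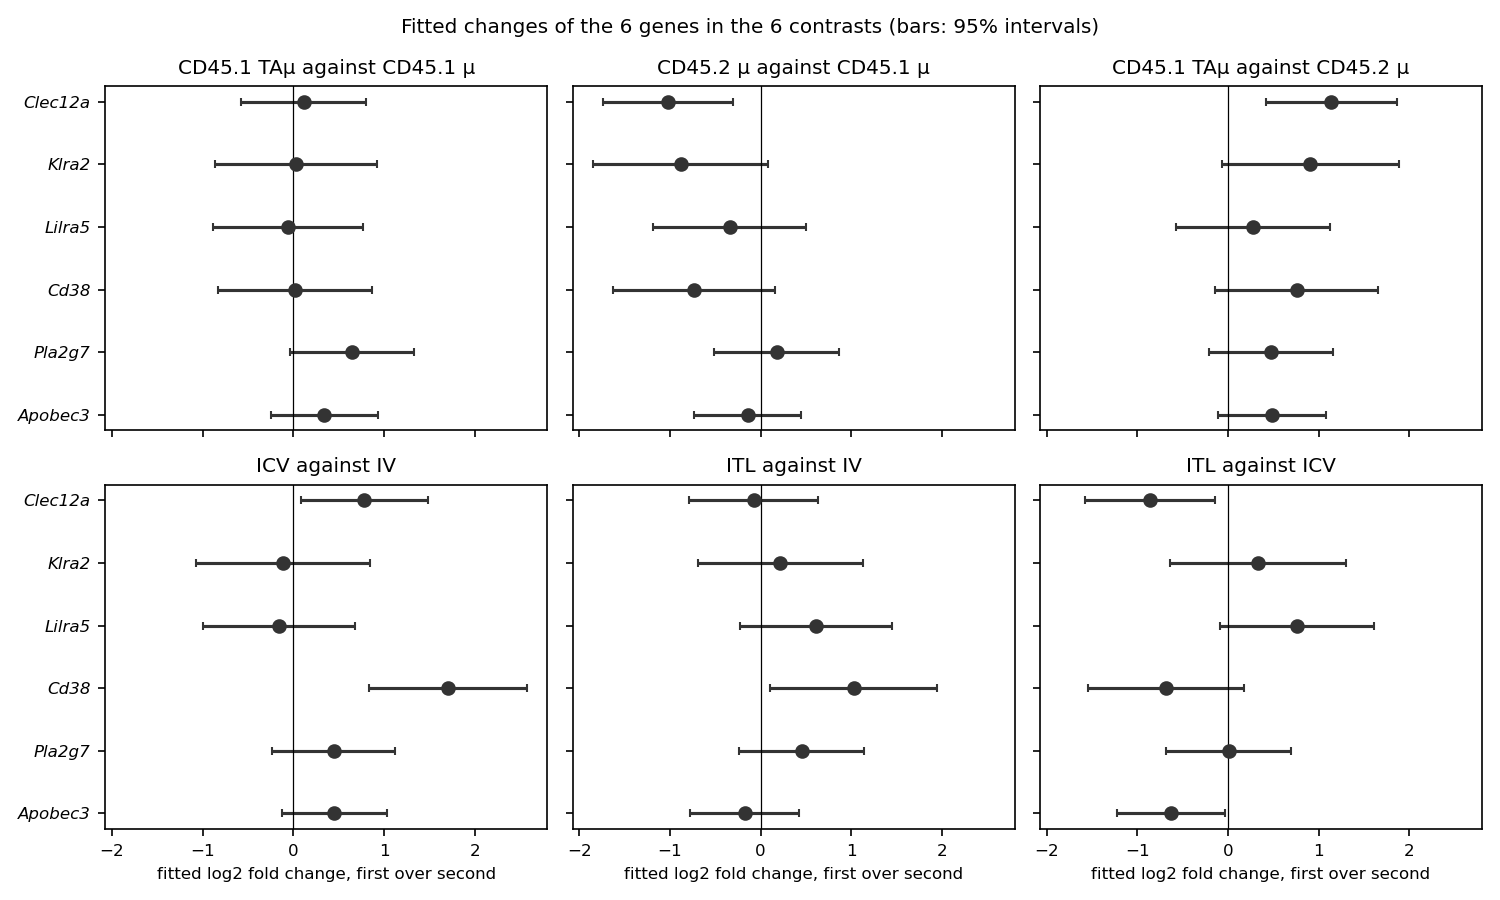
Fitted log2 fold changes of the 6 genes in 6 contrasts of the additive model over 9 libraries, the first-named side over the second; points are estimates and bars are 95% intervals of single genes, not adjusted for the number of genes. Intervals lie above 0 for Clec12a for CD45.1 TAµ over CD45.2 µ (1.14) and ICV against IV (0.78) and for Cd38 for ICV against IV (1.71) and ITL against IV (1.02), and below 0 for Clec12a for CD45.2 µ over CD45.1 µ (-1.02) and ITL against ICV (-0.86) and for Apobec3 for ITL against ICV (-0.63); none of the 6 genes passed the adjusted threshold in any contrast.

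All 6 fitted changes were positive for CD45.1 TAµ over CD45.2 µ, with a median log2 fold change of 0.62 against 0.10 over all genes tested. For CD45.2 µ over CD45.1 µ 5 of 6 were negative (median -0.54, all genes -0.01), and for CD45.1 TAµ over CD45.1 µ 5 of 6 were positive (median 0.07, all genes 0.06), of which Klra2 and Cd38 turned negative and Clec12a stood at 0.0045 when scaled by library totals. The mean CPM of these 3 genes in the TAµ libraries was under that in the CD45.1 µ libraries, and each was higher in 1 of 3 routes. The other engrafted-macrophage genes had medians of 1.08, -0.54 and 0.37 in these contrasts, and of these 20 genes 1 rose, Mrc1, the mannose receptor gene, by 1.49 ± 0.29 for CD45.1 TAµ over CD45.2 µ (adjusted p = 0.0303, edgeR). Apobec1, the relative of Apobec3, rose in the same contrast by 1.28 ± 0.26 (adjusted p = 0.0418), the 1 called gene among 7 tested APOBEC and restriction genes. Of 20 homeostatic microglia genes 8 fell in that contrast (Nav3, Sparc, Upk1b, Ecscr, Sall3, P2ry12, Slc2a5 and Sall1) and 3 fell for CD45.1 TAµ over CD45.1 µ (Nav3, Sall3 and Sall1). None of the tested genes of the signalling, C-type lectin, immunoglobulin-like, Ly49, NAD and PAF lists passed in any of the 6 contrasts.

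The comparisons of routes ask whether delivery into the cerebrospinal fluid spaces gives other levels than delivery into a vein. Cd38 showed the widest difference, with higher levels in the 3 ICV libraries of the model than in any IV library. Apobec3 also separated these ICV and IV libraries without overlap, and Clec12a was higher by ICV than by IV within 3 of 3 populations. The PBS library, also labelled ICV but not in the model, did not share this separation. Its Cd38 level of 18.5 CPM was within the IV range (15.6 to 26.1 CPM). Its Apobec3 level of 139 CPM was below IV CD45.1 TAµ (143 CPM). None of the 6 genes passed an adjusted p of 0.05 in the route contrasts, in edgeR or DESeq2. Over all genes tested, 0.0% passed for ICV against IV (edgeR; 1230 genes at an unadjusted p under 0.05, 2 of them members, and 147 genes by DESeq2), 0.217% for ITL against IV (29 genes, and 150 by DESeq2), and 0.0% for ITL against ICV (506 at an unadjusted p under 0.05, 2 of them members, and 32 by DESeq2). Groups without overlap were found for 2, 0 and 0 of the 6 genes and for 10.1%, 11.6% and 9.75% of genes, in the same order of contrasts.

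Cd38 averaged 40.5 ± 26.0 CPM in ITL libraries, 59.4 ± 7.63 CPM in ICV libraries and 20.6 ± 5.29 CPM in IV libraries (SD, n = 3 each). These ICV libraries, which leave out PBS (18.5 CPM), lay between 52.7 and 67.7 CPM, above all IV libraries. ITL held both high libraries (CD45.1 cells) and the lowest of all 9 (CD45.2 µ). The log2 fold change for ICV against IV was 1.71 ± 0.41, with a 95% interval from 0.84 to 2.58, and an adjusted p = 0.243 in edgeR's quasi-likelihood test. ICV was 2.21-fold IV in CD45.1 TAµ cells, 3.37-fold in CD45.2 µ cells and 3.39-fold in CD45.1 µ cells. For ITL against IV the log2 fold change was 1.02 ± 0.44 (adjusted p = 0.855), higher in 2 of 3 populations, and for ITL against ICV it was -0.68 ± 0.41 (adjusted p = 0.998).

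Clec12a averaged 113 ± 53.5 CPM in ITL libraries, 183 ± 40.7 CPM in ICV libraries and 130 ± 74.7 CPM in IV libraries. The routes overlapped, and the IV spread came from CD45.2 µ at 45.3 CPM beside 156 and 188 CPM. The log2 fold change was 0.78 ± 0.33 for ICV against IV (adjusted p = 0.502, edgeR) and -0.86 ± 0.34 for ITL against ICV (adjusted p = 0.998), lower in 3 of 3 populations. Apobec3 averaged 109 ± 42.0 CPM in ITL libraries, 158 ± 17.3 CPM in ICV libraries and 126 ± 17.3 CPM in IV libraries. Its log2 fold change was 0.45 ± 0.27 for ICV against IV (adjusted p = 0.619) and -0.63 ± 0.28 for ITL against ICV (adjusted p = 0.998).

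Klra2 averaged 128 ± 68.1 CPM in ITL libraries, 80.7 ± 21.4 CPM in ICV libraries and 117 ± 69.9 CPM in IV libraries. Its routes overlapped, and the fitted change for ICV against IV was -0.11 ± 0.45 (95% interval -1.07 to 0.84). Lilra5 averaged 54.1 ± 22.5 CPM in ITL libraries, 30.8 ± 9.88 CPM in ICV libraries and 36.8 ± 9.0 CPM in IV libraries. ITL was higher than ICV in 3 of 3 populations, with a log2 fold change of 0.76 ± 0.40 (adjusted p = 0.998, edgeR) and overlapping groups. Pla2g7 averaged 111 ± 54.1 CPM in ITL libraries, 102 ± 19.5 CPM in ICV libraries and 82.7 ± 26.0 CPM in IV libraries. Its changes for ICV against IV (0.44 ± 0.32) and ITL against IV (0.45 ± 0.33) had 95% intervals that included 0 (-0.23 to 1.12 and -0.24 to 1.15).

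Among markers of other cell types, all 12 of border-associated macrophages had a positive fitted change for ICV against IV (median 0.81). Their sum was 4377 to 6134 CPM in ICV libraries, 1945 to 4184 CPM in ITL libraries and 2344 to 4806 CPM in IV libraries, and none of the 12 genes passed in the route contrasts. The ICV and IV sums overlapped, with IV CD45.1 TAµ (4806 CPM) above ICV CD45.2 µ (4377 CPM). Neutrophil markers summed to 1791 to 4871 CPM in ITL libraries, 1086 to 3384 CPM in ICV libraries and 504.8 to 14750 CPM in IV libraries. All 11 neutrophil markers tested had a negative fitted change for ICV against IV (median -1.41). Of 9 oligodendrocyte markers, 7 had a positive one (median 1.92), and none of either list passed. The part of these cell types in the values of Cd38 and Apobec3 was not tested.

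Clec12a and Klra2, both lectin-like receptor genes on chromosome 6, had a read ratio that differed between libraries, which was noticed after their values had been seen. The ratio of Clec12a to Klra2 reads does not depend on how a library is scaled. In ICV cells it was 2.86 (CD45.1 TAµ), 1.44 (CD45.2 µ) and 2.90 (CD45.1 µ). In ITL cells it was 0.985, 1.31 and 0.650, and in IV cells 1.01, 1.24 and 1.17, populations in the same order. All ICV transplant libraries were above all ITL and IV libraries. The counting interval of ICV CD45.2 µ (1.36 to 1.52) nevertheless overlapped those of ITL CD45.2 µ (1.12 to 1.52) and IV CD45.2 µ (1.09 to 1.40). How often other pairs of genes separate in this way was not measured. PBS, also labelled ICV, had a ratio of 0.678, and CTR had 1.14.

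**Figure D4:**
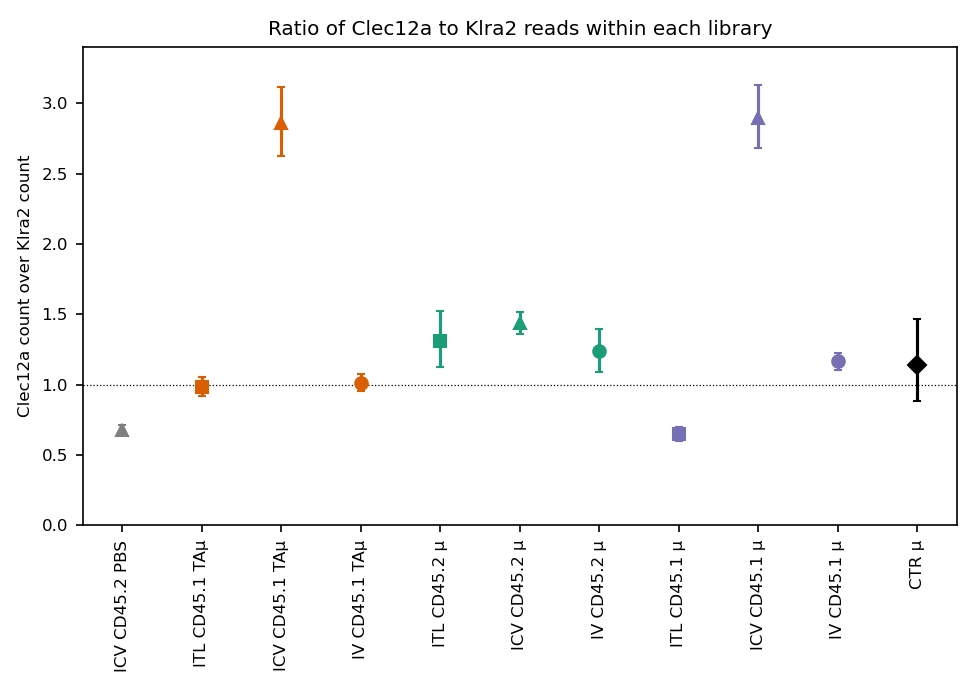
Clec12a reads divided by Klra2 reads within each of the 11 libraries; bars are 95% intervals for counting error, colours are populations and shapes are routes (square ITL, triangle ICV, circle IV). ICV CD45.1 TAµ and ICV CD45.1 µ stand at 2.86 and 2.90, ICV CD45.2 µ at 1.44, and the ICV CD45.2 PBS library at 0.678.

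The PBS library was set beside ICV CD45.2 µ, the library of the same route and allele, as 1 library against 1, with intervals that cover counting error only. Lilra5 had 57.8 CPM in PBS and 27.1 CPM in ICV CD45.2 µ, a ratio of 2.13 (95% interval 1.93 to 2.36). Klra2 had 158 CPM in PBS and 103 CPM in ICV CD45.2 µ, a ratio of 1.53 (1.45 to 1.62). Cd38 went the other way, with 18.5 CPM in PBS and 52.7 CPM in ICV CD45.2 µ, a ratio of 0.350 (0.310 to 0.395). Clec12a had 107 CPM in PBS and 148 CPM in ICV CD45.2 µ (ratio 0.723), Pla2g7 110 and 83.6 CPM (ratio 1.31) and Apobec3 139 and 146 CPM (ratio 0.956, 0.907 to 1.01). The ratio was past 1.5-fold for 3 of 6 genes, against 37.1% of all genes, and there is no replicate to test it. All 6 genes were higher in PBS than in CTR.

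Across the 9 transplant libraries the 6 genes did not vary as 1 block. Given as a description over libraries that share routes and populations, Pearson's r of log2 levels was 0.704 for Cd38 and Apobec3 (Spearman's rho 0.667), 0.655 for Clec12a and Cd38 and 0.622 for Clec12a and Klra2. It was -0.116 for Clec12a and Lilra5 and -0.0391 for Klra2 and Pla2g7. Across all 11 libraries, the genes whose level was most like the mean of the 6 were Kcnab2 (r = 0.977), Axl (0.976), Atrnl1 (0.974), Mdfic (0.974) and Ccr1 (0.968), each low in CTR. The CTR library weighs on these values: over the 10 others, Mpeg1 (0.94), Mdfic (0.936), AF529169 (0.923), Cmah (0.906) and Axl (0.9) came first. Single members were most like Ccr1 and Emilin1 (Clec12a, r = 0.982 and 0.975), Clec7a and Msr1 (Klra2, 0.975 and 0.97), Dazap2 and Tpm4 (Lilra5, 0.904 and 0.875), Wwp1 and Galc (Cd38, 0.919 and 0.916), Slc6a6 and Gdpd5 (Pla2g7, 0.965 and 0.937) and Cd22 and Trpv4 (Apobec3, 0.921 and 0.917), over 11 libraries. Over the 10 libraries without CTR, other genes came first for the single members: Gtpbp3 and Gpr160 (Clec12a, 0.952 each), Lcp1 and Zfp810 (Klra2, 0.944 and 0.937), Ptpmt1 and Dazap2 (Lilra5, 0.897 and 0.894), Prmt5 and Igf1 (Cd38, 0.898 and 0.882), Rpl41 and Pigx (Pla2g7, 0.85 and 0.81) and Dab2 and Hip1 (Apobec3, 0.907 and 0.9). Of the genes named over 11 libraries, only Dazap2 was named again for its member.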

How the data were processed

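Polyadenylated RNA was sequenced from sorted brain myeloid cells in 11 libraries. For each library the authors deposited a table of raw, unnormalized counts (whole reads for every gene symbol). Per the submitters' processing notes, STAR was used and the genome is named mm39 and GRCm39; the STAR version, annotation, strand setting and filters were not given in the sources used here. All columns belonged to a library (0 left over).

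The 6 genes and all gene lists were chosen with earlier results of these data known. Levels are CPM of the library total, with exact 95% intervals that cover counting error only. The 9 libraries of 3 routes by 3 populations were fitted additively with edgeR 4.0.16 (R 4.3.3; TMM scaling, minimum count 10, minimum total 15), which left 13339 genes and 4 residual degrees of freedom. The quasi-likelihood F test and the 95% intervals of fold changes add prior degrees of freedom, borrowed from other genes, to these 4. The test was adjusted over all genes by Benjamini-Hochberg at 0.05. The SE is the absolute log2 fold change divided by the square root of F. DESeq2 1.42.0, other scalings, no filter, no block, all 11 libraries and leaving out libraries were alternatives. CTR and PBS were compared with no test, over 14766 genes past the same filter.

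All 6 genes are named throughout, with up to 4 genes of each list, first in list order. For likeness, the 5 genes most like the mean of the 6 and the 2 most like each gene were named by Pearson's r of log2 (CPM + 1), at a mean of at least 10 CPM. Other genes named as passing a test or lying outside a range were chosen after their values were seen.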

Additional observations from a re-analysis of the deposited data

Results flagged for a closer look

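The following ratios went in opposite directions in 2 blocks of the same contrast, each past 1.5-fold with a counting interval that leaves out 1. With 1 library per combination the difference between blocks was not tested. Lilra5 for CD45.1 TAµ over CD45.1 µ was 1.62 in IV and 0.555 in ICV. For CD45.2 µ over CD45.1 µ, Lilra5 was 1.54 in IV and 0.403 in ITL. Klra2 for CD45.1 TAµ over CD45.2 µ was 4.21 in IV and 0.587 in ICV. For ICV over IV, Klra2 was 2.81 in CD45.2 µ cells and 0.392 in CD45.1 TAµ cells, and Lilra5 was 1.58 in CD45.1 µ cells and 0.542 in CD45.1 TAµ cells. For ITL over ICV, Klra2 was 2.87 in CD45.1 TAµ cells and 0.481 in CD45.2 µ cells, and Pla2g7 was 1.75 in CD45.1 TAµ cells and 0.666 in CD45.1 µ cells. Clec12a, Cd38 and Apobec3 had no such pair.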

How the results depend on the processing

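No member passed the threshold in any of the 6 contrasts under another scaling, no filter, DESeq2, all 11 libraries or no block. Of the members' log2 fold changes, 242 kept and 10 turned their direction under these settings and without the 2 libraries with the fewest genes detected, a choice made after seeing the data. For CD45.1 TAµ over CD45.1 µ, Klra2 was -0.064 with library totals and -0.18 without the 2 libraries, Lilra5 0.013 without them, and Cd38 -0.12 with library totals, -0.011 with no block and -0.22 without the 2 libraries. Without them, Lilra5 was 0.11 for ICV against IV, and Klra2 -0.072 and Apobec3 0.0040 for ITL against IV. Pla2g7 was -0.018 with DESeq2 for ITL against ICV. The cause was not tested.

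Genes called moved by more than 1.5 times. DESeq2 called 217, 277, 193, 147, 150 and 32 genes in the contrasts CD45.1 TAµ over CD45.1 µ (10 in edgeR), CD45.2 µ over CD45.1 µ (4), CD45.1 TAµ over CD45.2 µ (46), ICV against IV (0), ITL against IV (29) and ITL against ICV (0). No block gave 2, 0, 29 and 13 genes in the first 3 and in ITL against IV. For CD45.1 TAµ over CD45.1 µ, library totals gave 18, no filter 23 and all 11 libraries 24, and for ICV against IV these gave 3, 8 and 6. For ITL against ICV, no filter, all 11 libraries and leaving out the 2 libraries gave 2 each, and leaving out the 2 gave 49 for ITL against IV.

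With 1 library left out, the lone or paired remainder of a group is assumed to vary like the others. Genes called ran from 0 to 24, 0 to 29, 5 to 159, 0 to 28, 0 to 35 and 0 to 3 in the same order of contrasts. Members called ran from 0 to 1 for CD45.2 µ over CD45.1 µ and from 0 to 2 for CD45.1 TAµ over CD45.2 µ, always without ICV CD45.2 µ (Klra2 -2.01 and 2.04, Clec12a 1.67). For CD45.1 TAµ over CD45.1 µ, log2 fold changes ran from -0.16 to 0.58 for Clec12a, -0.31 to 0.43 for Klra2, -0.40 to 0.25 for Lilra5 and -0.19 to 0.42 for Cd38. For CD45.2 µ over CD45.1 µ they ran from -0.69 to 0.0083 for Lilra5, -0.17 to 0.50 for Pla2g7 and -0.30 to 0.12 for Apobec3, and for CD45.1 TAµ over CD45.2 µ from -0.054 to 0.59 for Lilra5. For ICV against IV they ran from -1.08 to 0.41 for Klra2 and -0.48 to 0.15 for Lilra5. For ITL against IV they ran from -0.40 to 0.39 for Clec12a, -0.14 to 0.64 for Klra2 and -0.43 to 0.11 for Apobec3, and for ITL against ICV from -0.17 to 1.34 for Klra2 and -0.38 to 0.31 for Pla2g7.

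The CTR ratios of the 6 genes moved by less than the spread between libraries under TMM scaling, without the 45S transcript and with any 1 library left out, and without ITL CD45.2 µ all 6 genes were below the other 8 in CTR. Of the levels per library, 91 moved beyond their counting interval and 41 did not under these 2 scalings, and in PBS over ICV CD45.2 µ Klra2 then had a log2 ratio of 0.48 or 0.47, under 1.5-fold, and Clec12a -0.60 or -0.61, past it, so that 3 genes stayed past 1.5-fold, with Clec12a in place of Klra2. No paired analysis was possible because GEO's labels number neither animals nor replicates. With 1 library per combination, the interaction of route and population could not be tested.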
